A study of Mus musculus with 4 samples.

Results

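The miR-29 family was followed through the transition from mouse embryonic stem (ES) cells to epiblast-like aggregates (ELA). Its members here are 5 mature miRNAs taken by name: mmu-miR-29a-3p, mmu-miR-29b-3p, mmu-miR-29c-3p, mmu-miR-29a-5p and mmu-miR-29c-5p. They are 5 of the 1907 mature miRNAs profiled, and the rule that picks them out uses their names and no measured value. Small RNA-seq was performed on 4 libraries of the line E14Tg2A (strain 129/Ola). "ES serum" cells grew in serum with leukemia inhibitory factor (LIF). "ES 2iL" cells had been moved to a serum-free medium with LIF, the MEK inhibitor PD0325901 and the GSK3 inhibitor CHIR99021. "ELA serum" and "ELA 2iL" are the floating aggregates formed from each of these after 2 days in a minimal medium. That medium holds no serum, LIF or inhibitors, so the medium name of an ELA library is that of the ES cells it came from. A comparison of ELA with ES cells thus spans both stage and the change of medium, which cannot be told apart here. Each group had 1 library, made from pooled RNA of 3 sets of experiments, and no value below carries a replicate error.

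A miRNA guides Argonaute proteins to mRNAs, mainly by pairing of its seed, bases 2 to 8 counted from the 5′ end, with sites in 3′ untranslated regions (UTRs), and it lowers the stability or translation of the mRNA. The hairpin precursor can yield a mature strand from either side, called 5p and 3p. In the miR-29 family the 3p strand is the main product, and it is known for targeting the DNA methyltransferases Dnmt3a and Dnmt3b, which set new DNA methylation, the Tet enzymes and Tdg, which take part in its removal, and collagens. Cells in 2iL are known for low DNA methylation, which is gained on the way to the primed, epiblast-like state.

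The mature strands are shown first because the sequence decides which members can share targets and which can be told apart by mapping. RefSeq sequences (table built on GRCm38.p6) were found for 5 of the 5 members, and the seed is in capitals.
mmu-miR-29a-3p: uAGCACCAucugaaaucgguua
mmu-miR-29b-3p: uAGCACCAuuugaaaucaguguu
mmu-miR-29c-3p: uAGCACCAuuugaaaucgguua
mmu-miR-29a-5p: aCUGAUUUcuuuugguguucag
mmu-miR-29c-5p: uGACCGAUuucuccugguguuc
The 3 strands of the 3p arm had the same seed, AGCACCA, and no other mature miRNA in the sequence table had it. Over their whole length, miR-29a-3p and miR-29c-3p were identical in 21 of 22 bases. Their substitution was C10U, with the miR-29a-3p base first and positions counted from 1 at the 5′ end. From miR-29c-3p to miR-29b-3p the substitutions were G18A, U21G and A22U. miR-29a-5p and miR-29c-5p had different seeds. Their sequences were alike with a shift of 2 bases, with 17 of 20 bases identical when base 1 of miR-29a-5p was set against base 3 of miR-29c-5p. Because the mismatches allowed in mapping are not given in the sources used here, reads of miR-29a-3p and miR-29c-3p may have been exchanged, and the levels of each are uncertain to that degree.

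The hairpins lie in 2 pairs (mm9, GENCODE M1). Their sequences show the mature strands in capitals, 5p before 3p.
Mir29a: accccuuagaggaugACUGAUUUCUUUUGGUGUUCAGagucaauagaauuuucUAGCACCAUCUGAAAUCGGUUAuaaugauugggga
Mir29b-1: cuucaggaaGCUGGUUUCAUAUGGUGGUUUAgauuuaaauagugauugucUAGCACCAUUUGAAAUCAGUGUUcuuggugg
Mir29b-2: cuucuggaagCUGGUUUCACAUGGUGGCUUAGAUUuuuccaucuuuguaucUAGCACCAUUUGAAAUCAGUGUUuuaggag
Mir29c: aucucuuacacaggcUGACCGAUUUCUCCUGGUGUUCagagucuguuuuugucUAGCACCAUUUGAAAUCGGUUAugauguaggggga
Mir29a (chr6:31012660-31012747) and Mir29b-1 (chr6:31013017-31013097) are on the minus strand, within 438 bp and in no annotated gene other than their own. Mir29b-2 (chr1:196863234-196863314) and Mir29c (chr1:196863741-196863828) are on the plus strand, within 595 bp, and both lie in an exon of the long non-coding RNA A330023F24Rik on the same strand. miR-29b-3p is made from both pairs, so its reads cannot be given to a locus, while its 5p strands differ between the loci and are listed apart.

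From the deposited RPM values (reads scaled to a total of 1000000 miRNA reads), 8056984 reads were recovered for ES serum and 4309257 for ELA serum, against 2767016 for ES 2iL and 587363 for ELA 2iL. RPM is a share of each library and not an amount per cell. The lowest level taken as detected, 3 reads, was 0.372 and 0.696 RPM in the serum libraries (ES, then ELA) and 1.08 and 5.11 RPM in the 2iL libraries. The ES-cell miRNAs mmu-miR-295-3p and mmu-miR-294-3p had mean levels of 16.05 and 12.94 on the log2(RPM + 1) scale. A listed 0 was not read as absence, since mmu-miR-290a-3p and mmu-miR-292a-3p, of the same ES-cell cluster, were also listed at 0 in all 4 libraries. Of the blood-cell hairpin miR-142a, mmu-miR-142a-3p was listed at 0 and mmu-miR-142a-5p had a mean level of 9.98 on the same scale. This hairpin therefore gave no clear answer on blood cells, and markers of other cell types were not examined here. The titles, source names, culture labels and column names gave the same groups, but the free-text description exchanges ES 2iL with ELA serum. Grouping by it would exchange the stage and medium contrasts given below. mmu-miR-302d-3p, of a cluster known to be high in primed pluripotent cells, had a stage contrast of 4.73 and a medium contrast of −4.47 on log2(RPM + 1) with the groups used here, and the exchange would make it lower in ELA. All intervals given for reads are 95% intervals that cover counting error only.

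miR-29a-3p was the most abundant member in every library. In serum it measured 82.2 RPM in ES cells (662 reads, exact Poisson interval 76.0 to 88.7) and 149 RPM in ELA (640 reads, 137 to 160). In 2iL it measured 115 RPM in ES cells (319 reads, 103 to 129) and 90.2 RPM in ELA (53 reads, 67.6 to 118). ELA serum therefore stood above the other 3 libraries, ES 2iL stood above ES serum, and ELA 2iL could not be placed between them, since its interval overlapped both ES libraries. Among the miRNAs with any read in a library, miR-29a-3p ranked 223 of 1034 (ES serum), 181 of 930 (ELA serum), 221 of 969 (ES 2iL) and 227 of 691 (ELA 2iL).

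miR-29b-3p and miR-29c-3p, with the same seed, were several-fold lower. miR-29b-3p measured 6.58 RPM in ES cells (53 reads) and 16.5 RPM in ELA (71 reads) for the serum pair, and 10.5 RPM (29 reads) and 15.3 RPM (9 reads) for the 2iL pair. It was lowest in ES serum (4.93 to 8.60), where its interval lay below that of ELA serum (12.9 to 20.8) and overlapped those of ES 2iL (7.02 to 15.1) and ELA 2iL (7.01 to 29.1). miR-29c-3p measured 10.9 RPM in ES cells (88 reads) and 19.7 RPM in ELA (85 reads) for the serum pair, and 26.4 RPM (73 reads) and 17.0 RPM (10 reads) for the 2iL pair. It too was lowest in ES serum (8.76 to 13.5), but its highest level was in ES 2iL, and that interval (20.7 to 33.2) overlapped those of ELA serum (15.8 to 24.4) and ELA 2iL (8.16 to 31.3).

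The 5p strands had few reads, and miR-29a-5p in every library and miR-29c-5p in ES 2iL were near the limit of detection. miR-29c-5p measured 2.36 RPM in ES cells and 4.41 RPM in ELA for the serum pair (19 reads each), and 1.45 RPM (4 reads) and 13.6 RPM (8 reads) for the 2iL pair. ELA 2iL was the highest on few reads, with an interval of 5.88 to 26.8, above those of both ES libraries (upper bounds 3.68 and 3.70) and overlapping that of ELA serum (2.65 to 6.89), although the interval of the ratio of the ELA libraries, given below, lay above 0 on the log2 scale. miR-29a-5p had 7 reads (0.869 RPM) in ES serum, 5 (1.81 RPM) in ES 2iL and 3 in each ELA library (0.696 RPM in ELA serum, 5.11 in ELA 2iL), so both ELA libraries were at the detection floor. The other 5p strands had fewer reads, with 1 to 5 for mmu-miR-29b-1-5p and, for mmu-miR-29b-2-5p, 4 in ES serum, 3 in ES 2iL and 0 in both ELA libraries. With 3 reads as the limit that a count of 0 allows, mmu-miR-29b-2-5p could have been at up to 0.696 RPM (ELA serum) or 5.11 RPM (ELA 2iL).

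**Figure D1:**
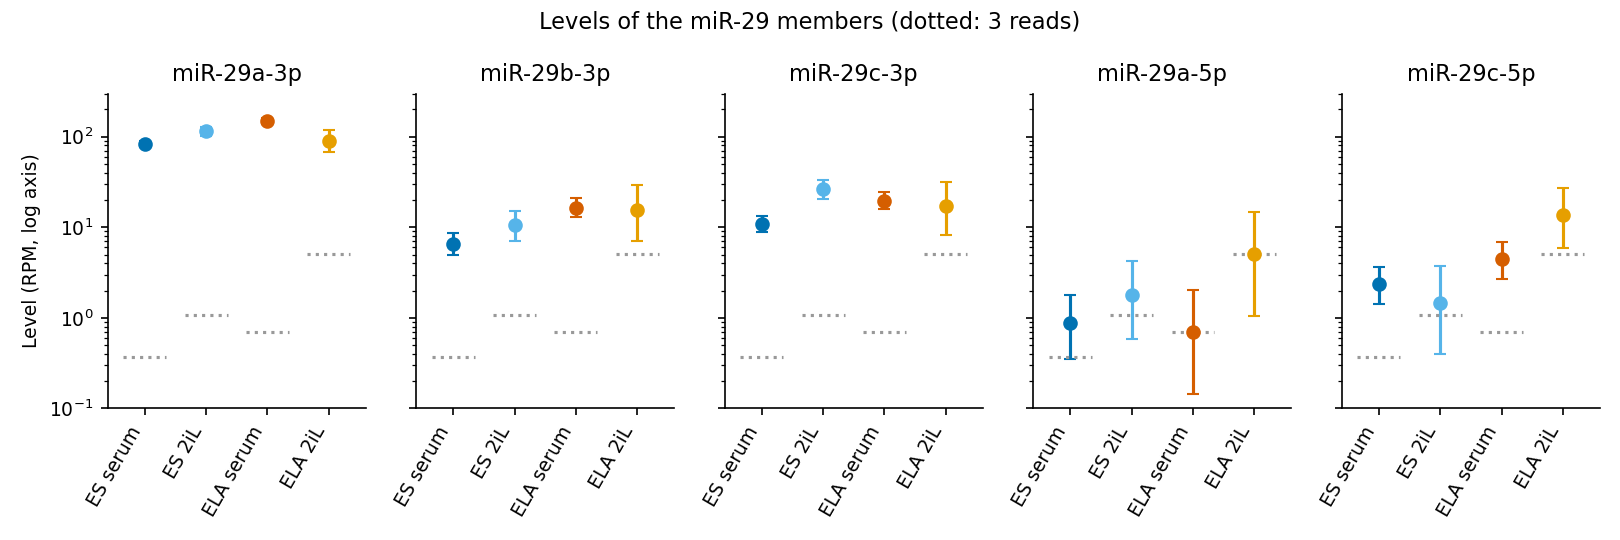
Level of each miR-29 member (RPM, log axis) in the 4 libraries, with exact Poisson 95% counting intervals and a dotted line at the level of 3 reads. miR-29a-3p sits between 82.2 and 149 RPM, miR-29b-3p and miR-29c-3p between 6.58 and 26.4, and the 5p strands lie close to or on the dotted line in several libraries.

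The comparison of ELA with ES cells gave different answers for cells from the 2 ES media. Since the 3p strands share a seed, their reads were also summed. The sum was 99.7 RPM in ES cells and 185 RPM in ELA for the serum pair, and 152 and 123 RPM for the 2iL pair. In serum it was 1.85-fold higher in ELA than in ES cells (exact Clopper-Pearson interval on the reads 1.68 to 2.05). In 2iL the ELA to ES ratio was 0.806 (0.619 to 1.04), an interval that includes no difference. On the log2 scale that 2iL value was −0.31 on RPM and between −0.08 and −0.06 under the other 3 scalings tried, so its size depended on the scaling.

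Each 3p strand took part in the serum difference. On the log2 scale of the RPM ratio, ELA serum was above ES serum by 0.85 for miR-29a-3p (0.70 to 1.01), by 1.32 for miR-29b-3p (0.79 to 1.87) and by 0.85 for miR-29c-3p (0.41 to 1.30). In 2iL the values were −0.35 for miR-29a-3p (−0.80 to 0.07), 0.55 for miR-29b-3p (−0.72 to 1.67) and −0.63 for miR-29c-3p (−1.75 to 0.33), and all 3 intervals included 0. For scale, 288 miRNAs averaged at least 5 on the log2(RPM + 1) scale over the serum pair, and the quartiles of their ELA minus ES difference were −0.58 and 0.50, so miR-29a-3p lay above the upper one. The serum differences of the 3p strands were positive under all 4 scalings tried, and for the sum they ranged from 0.82 to 1.09.

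miR-29c-5p showed its larger difference in 2iL. ELA 2iL was above ES 2iL by 3.24 on the log2 scale of the RPM ratio, with an interval of 1.34 to 5.42 that rests on 8 against 4 reads. In serum the value was 0.90 (−0.09 to 1.90), from 19 reads in each library. For miR-29a-5p the values were −0.32 in serum (−2.90 to 1.81) and 1.50 in 2iL (−1.19 to 3.86), so no difference was detectable at this depth.

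The comparison of 2iL with serum differed between the stages in the same libraries. In ES cells the 3p sum was 1.53-fold higher in 2iL (1.35 to 1.72), or 0.61 on the log2 scale of the RPM ratio, and in ELA the ratio of 2iL to serum was 0.664 (0.514 to 0.845), or −0.59. The ES value was close to the median (0.50) of the 310 miRNAs that averaged at least 5 over that pair and fell to between 0.12 and 0.33 under the other 3 scalings. Over the ELA pair the median, of 302 miRNAs taken the same way, was 0.35, and the sum stayed negative under all 4 scalings (−0.95 to −0.55). miR-29a-3p followed this, with 0.49 in ES cells (0.29 to 0.68) and −0.72 in ELA (−1.15 to −0.31) on the log2 scale of the RPM ratio. The ES value of miR-29a-3p depended on the scaling and became 0.00 with TMM scaling, while the ELA value stayed negative under all 4 scalings. miR-29c-3p had the largest 3p difference between the ES libraries, 1.27 (0.80 to 1.74), and remained positive there under each scaling (0.78 to 1.27). Its value in ELA was −0.21 (−1.32 to 0.74). miR-29b-3p gave 0.67 in ES cells (−0.03 to 1.35) and −0.10 in ELA (−1.29 to 0.90). Of the 5p strands, miR-29c-5p was 1.63 higher in ELA 2iL than in ELA serum (0.23 to 2.89, from 8 and 19 reads), with −0.71 in ES cells (−2.72 to 0.88). miR-29a-5p gave 2.88 in ELA (−0.03 to 5.78, from 3 reads each) and 1.06 in ES cells (−0.94 to 2.93).

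**Figure D2:**
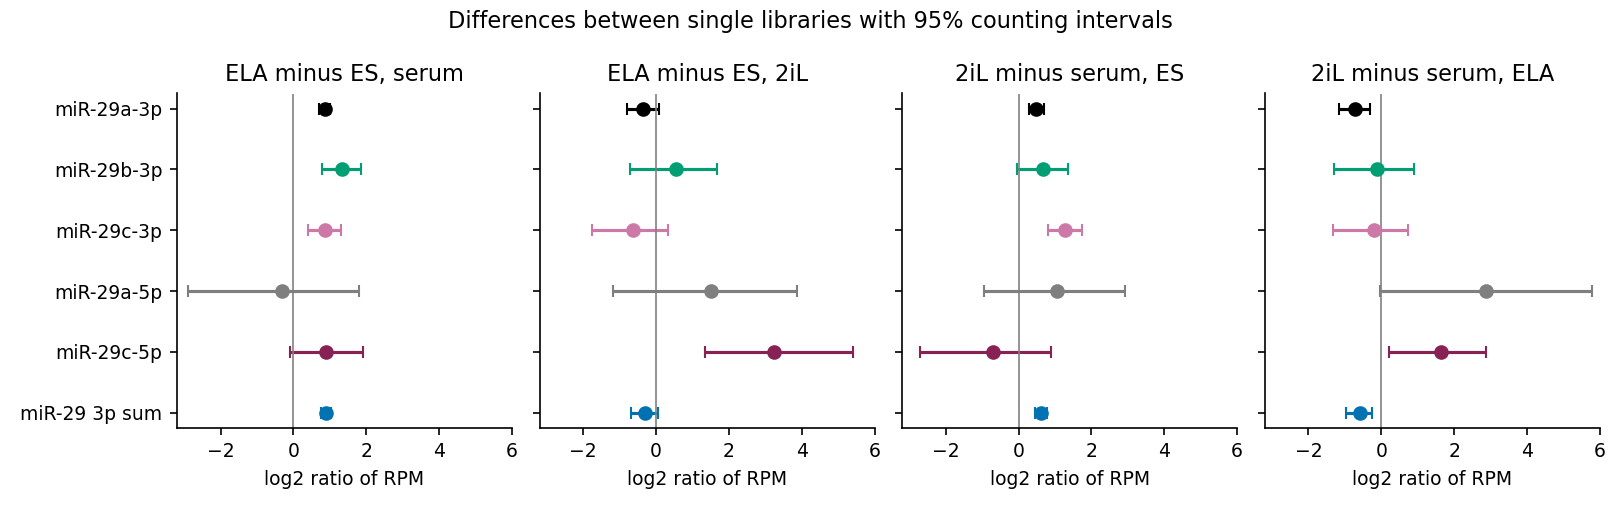
Differences between pairs of single libraries for each member and for the sum of the 3p strands (log2 ratio of RPM, with exact Clopper-Pearson 95% counting intervals); the line marks 0. The 3p strands are right of 0 for ELA minus ES in serum, with the sum at 0.89, and the sum is left of 0 for 2iL minus serum in ELA, at −0.59.

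Averaged over the pairs, no member passed the test. On log2(RPM + 1), the ELA minus ES difference averaged over both media is called the stage contrast, and the 2iL minus serum difference averaged over both stages the medium contrast. With limma, 0 of 599 miRNAs (those reaching 10 reads in 2 or more libraries) passed an adjusted p of 0.05 for stage (0% called, 125 at an unadjusted p under 0.05) and 0 for the medium (0% called, 176 unadjusted). On the recovered reads, edgeR (quasi-likelihood) called 39 and 64 and DESeq2 50 and 80. Of the 5 members, 4 could be tested, miR-29a-5p having too few reads, and none was called by any of these tests in either contrast. The error in the limma fit comes from how far the stage change differs between the media. A member with such a difference therefore gets a larger error.

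For stage, miR-29c-5p had the largest contrast, 1.63 ± 0.61 (limma SE, adjusted p = 0.229). It was higher in ELA in both media, by 0.69 in serum and 2.58 in 2iL on log2(RPM + 1). miR-29b-3p, also higher in both media (by 1.21 and 0.51), followed at 0.86 ± 0.47 (limma adjusted p = 0.328). miR-29a-3p was at 0.25 ± 0.52 (limma adjusted p = 0.798) and miR-29c-3p at 0.10 ± 0.54 (limma adjusted p = 0.935), averages of a positive serum and a negative 2iL difference. For the 302 miRNAs called expressed here, whose log2(RPM + 1) averaged 5 or more over the 4 libraries, the median was −0.08. Of these, 11.6% were higher and 16.2% lower in ELA by at least 1, and miR-29a-3p, the 1 member among them, was neither.

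For the medium, the median of the 302 expressed miRNAs was itself 0.42, and near 0 with TMM scaling (0.00), so member values are given relative to it. miR-29a-3p was at −0.11, or −0.53 relative to that median (limma adjusted p = 0.882). miR-29b-3p was at 0.25, or −0.17 relative to the median, and its own sign turned with TMM scaling (−0.13). miR-29c-3p (0.50) and miR-29c-5p (0.49) lay within 0.08 and 0.07 of the median. Of the 302, 23.8% were higher and 13.2% lower in 2iL by at least 1, and miR-29a-3p was again neither.

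**Figure D3:**
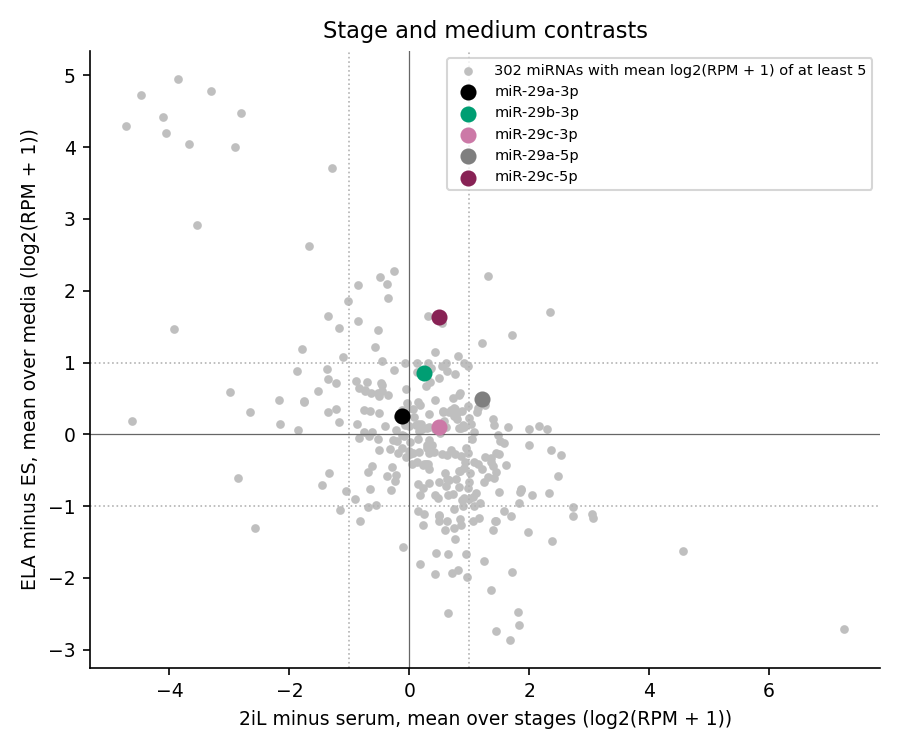
Stage contrast (vertical) against medium contrast (horizontal), both as differences of log2(RPM + 1), for the 302 expressed miRNAs in grey and the 5 members in colour; dotted lines mark 1 and −1. miR-29a-3p and miR-29c-3p lie near the centre of the cloud. In this setting miR-29c-5p lies beyond 1 for stage (1.63, but 0.94 with a pseudocount of 5), miR-29a-5p beyond 1 for the medium (1.22, but 0.52 with a pseudocount of 5), and miR-29b-3p within 1 for stage (0.86, but 1.02 with TMM).

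The make-up of the family does not depend on scaling, since it is a ratio within a library. miR-29a-3p made up 82.4% (Wilson interval 79.7 to 84.9) and 80.4% (77.5 to 83.0) of the 3p reads of ES and ELA in serum, and 75.8% (71.5 to 79.6) and 73.6% (62.4 to 82.4) in 2iL. The share of miR-29c-3p was 11.0% (8.98 to 13.3) and 10.7% (8.72 to 13.0) for ES and ELA in serum, and 17.3% (14.02 to 21.2) and 13.9% (7.72 to 23.7) in 2iL. It was higher in ES 2iL than in either serum library, beyond the counting intervals. The share of miR-29b-3p lay between 6.60% in ES serum and 12.5% in ELA 2iL, with overlapping intervals.

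The strand taken from a hairpin was also a ratio within a library. For miR-29a, the 5p strand was 1.05% (ES) and 0.467% (ELA) of the reads of both arms in serum, and 1.54% (ES) and 5.36% (ELA, 1.84 to 14.6) in 2iL, from 3 to 7 reads. For miR-29c it was 17.8% (ES, 11.7 to 26.1) and 18.3% (ELA, 12.0 to 26.8) in serum, from 19 reads of the 5p strand each, and in 2iL it was 5.19% (ES, 2.04 to 12.6, 4 reads) and 44.4% (ELA, 24.6 to 66.3, 8 reads). Both hairpins thus had their largest 5p share in ELA 2iL, the shallowest library, and the miR-29c intervals of the 2iL libraries did not overlap. miR-29b, whose 5p strands are no members, did not share this order, with 14.5% (ES) and 1.39% (ELA) in serum and 12.1% (ES) and 10.0% (ELA, 1.79 to 40.4, from 1 read) in 2iL. Among the 99 other hairpins with at least 10 reads of each arm in every library, the minor strand had its largest share in ELA 2iL in 25.3%. Neither miR-29a nor miR-29c reached those 10 reads, and the part of depth in their 5p shares was not tested. Among all 5p reads of the family, those of the chromosome 1 pair (miR-29b-2 and miR-29c) were 23 of 35 (ES) and 19 of 23 (ELA) in serum and 7 of 13 (ES) and 8 of 12 (ELA) in 2iL.

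**Figure D4:**
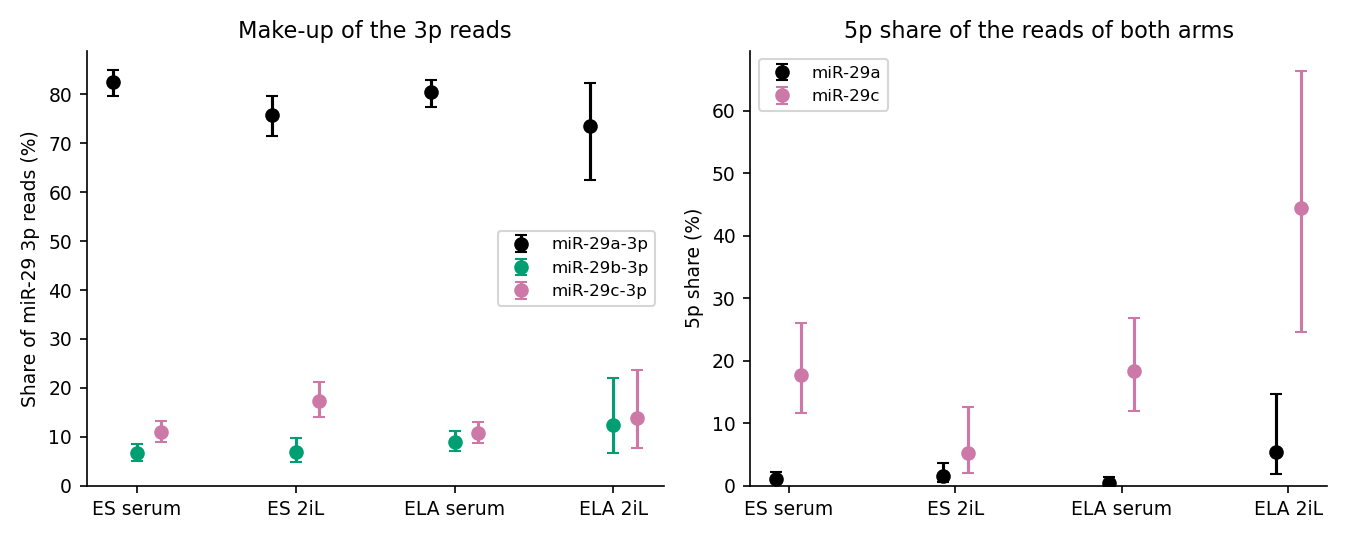
Left, share of each 3p strand in the miR-29 3p reads (%); right, share of the 5p strand in the reads of both arms (%) for miR-29a and miR-29c; bars are Wilson 95% intervals. miR-29a-3p holds 73.6 to 82.4% of the 3p reads in all libraries, and the 5p share of miR-29c runs from 5.19% in ES 2iL to 44.4% in ELA 2iL.

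Other miRNAs described as targeting DNA methyltransferases were read beside the family, as a list of 9 (miR-148a-3p, miR-148b-3p, miR-152-3p, miR-143-3p, miR-101a-3p, miR-101b-3p, miR-185-5p, miR-342-3p and miR-126a-3p). Of these, 8 could be tested and 0 were called by limma in either contrast, where 0% of all miRNAs were called. edgeR and DESeq2 also called 0 of the 8 in either contrast. Over all miRNAs tested, edgeR called 39 of 599 for stage and 64 of 599 for the medium. DESeq2 called 50 of 552 and 80 of 541. With 8 miRNAs, 0 calls do not set the list apart from these shares. Their stage contrasts were positive for 2 and negative for 6, with a median of −0.25. The median was −0.22 for the 599 tested miRNAs and −0.08 for the 302 expressed ones, so the list lay close to all tested miRNAs. The split by sign over all miRNAs was not counted. mmu-miR-143-3p was the 1 member of the list beyond 1, at −1.21 ± 0.44 (limma adjusted p = 0.219), with 3102 RPM (ES) and 1451 RPM (ELA) in serum and 4729 and 1886 RPM in 2iL. mmu-miR-148a-3p was far more abundant than miR-29a-3p, at 14843 RPM (ES) and 22199 RPM (ELA) in serum and 26101 and 27511 RPM in 2iL. mmu-miR-126a-3p was listed at 0 in all 4, which is not read as a low level.

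The miRNAs whose profile was nearest to the summed 3p strands were found by Euclidean distance between log2(RPM + 1) values centred over the 4 libraries, among 301 expressed miRNAs outside the family. They were miR-532-5p (distance 0.35), miR-106b-3p (0.35), miR-200c-3p (0.37), miR-380-3p (0.51) and miR-376b-3p (0.51), where the median distance was 1.49. mmu-miR-532-5p, for example, measured 241 RPM (ES) and 347 RPM (ELA) in serum and 287 and 216 RPM in 2iL, with ELA serum highest and ES 2iL next, as for the 3p sum, but ELA 2iL lowest. The nearest to miR-29b-3p were miR-376a-3p (0.24), miR-379-3p (0.45), miR-382-3p (0.46), miR-154-5p (0.52) and miR-193b-3p (0.56). mmu-miR-376a-3p measured 115 RPM (ES) and 215 RPM (ELA) in serum and 164 and 240 RPM in 2iL. These likenesses rest on 4 libraries and are a description.

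The shared 3p seed was then set against the genes of DNA methylation, since these carry the family's known targets. The complement of the seed, TGGTGCT, was searched on the transcript strand of the longest annotated 3′ UTR of each gene (GENCODE M1, mm9 reference and not the 129/Ola cells), and a following A gave the 8-base form TGGTGCTA, which is counted within it. Of 19915 genes with a 3′ UTR, 12.4% held the 7-base match and 2.64% the 8-base form. Of 9 genes of DNA methylation, 6 held the 7-base match and 5 the 8-base form. The sites below were chosen because they are the 8-base ones, with the site of Dnmt3b, which has only a 7-base match; 23 bases are shown 5′ to 3′ on the transcript strand, and the match is in capitals.
Dnmt3a chr12:3911390-3911412 (+): cccaggggaggtagcTGGTGCTA
Dnmt3a chr12:3911459-3911481 (+): agcggggtcccaagcTGGTGCTA
Dnmt3b chr2:153512348-153512370 (+): tagagtagcccggcaTGGTGCTc
Tet1 chr10:62268790-62268812 (-): gtttcttgaaggagaTGGTGCTA
Tet2 chr3:133129137-133129159 (-): ggtgttaacattaaaTGGTGCTA
Tet2 chr3:133128080-133128102 (-): aaattcacatcacgaTGGTGCTA
Tet3 chr6:83314330-83314352 (-): aaatagtctaataaaTGGTGCTA
Tet3 chr6:83313771-83313793 (-): aaggccgcttttagtTGGTGCTA
Tdg chr10:82112407-82112429 (+): ctcatgcattttccaTGGTGCTA

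Matches were most numerous in Tet3 and Tet1, while Tet2 held as many as Dnmt3a. The Tet enzymes oxidise methylated cytosine. Tet3 held 8 in a 3′ UTR of 5669 bases, Tet1 7 in 7962 bases and Tet2 5 in 3058 bases. Among genes with a 3′ UTR of 0.8 to 1.25 times the same length, 45.2%, 49.0% and 27.6% held at least 1. With the gene itself counted, 0.195%, 0.637% and 0.0954% held as many matches or more. Dnmt3a held 5 in 6696 bases (48.5% of genes of like length with at least 1), Tdg, a glycosylase that removes oxidised cytosine, 3 in 2079 bases (19.9%), and Dnmt3b 1 in 1331 bases (12.5%). The shares with as many or more were 1.62% for Dnmt3a, 0.270% for Tdg and 12.5% for Dnmt3b. Only 8 of the 19915 genes held 5 or more, and Tet1, Tet2, Tet3 and Dnmt3a were 4 of them; the others, named after their counts were seen, were Agpat5, Col11a1, Fbxo7 and Sestd1. Dnmt1, which maintains methylation, its partner Uhrf1, and Dnmt3l, a cofactor of the Dnmt3 enzymes, had no match in their 315, 984 and 273 bases, lengths at which 3.73%, 9.95% and 3.02% of genes held at least 1. Of 5 other chromatin regulators, Kdm5b held 1 match, while Kdm2b, Smarca4, Smarcd1 and Chd4 held none, and the shares of genes of like length with a match were 7.29 to 20.1% for these 5. A match describes sequence only, and the level or binding of these mRNAs was not analysed here.

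**Figure D5:**
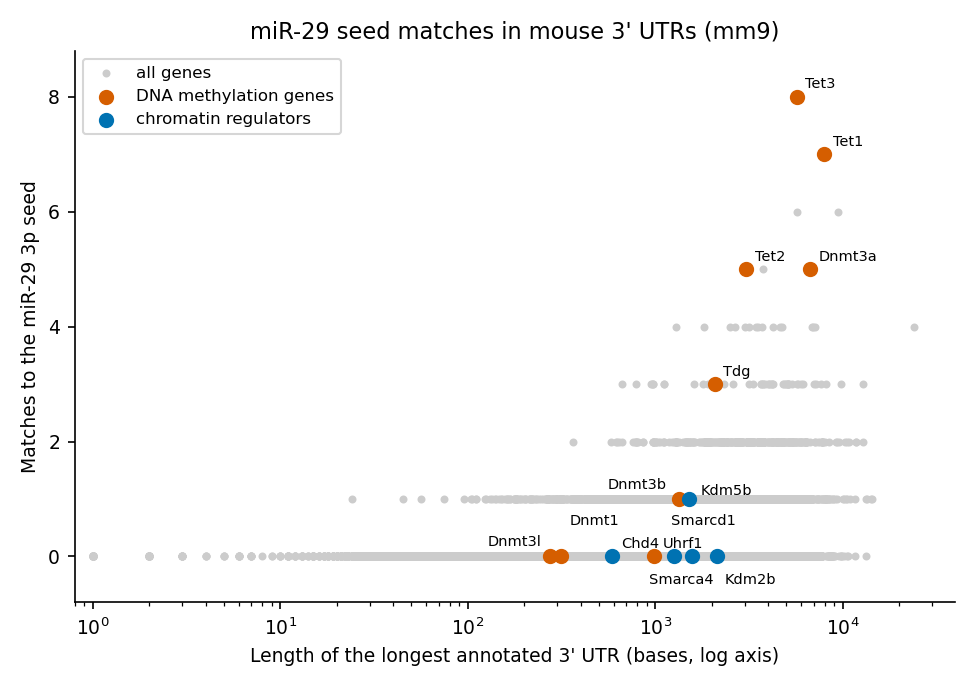
Number of 7-base matches to the miR-29 3p seed against the length of the longest annotated 3′ UTR (bases, log axis) for 19915 genes in grey, 9 genes of DNA methylation in orange and 5 chromatin regulators in blue. Tet3 (8) and Tet1 (7) are the highest points of the plot, and Dnmt1, Dnmt3l and Uhrf1 lie at 0.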

How the data were processed

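Total RNA of each group, pooled from 3 sets of experiments, was made into a small RNA library. The authors demultiplexed with CASAVA 1.8, trimmed adaptors with Trimmomatic, mapped with Bowtie to mm9 (NCBI 37), assigned reads to miRBase 20 with featureCounts and deposited RPM values, each column summing to 1000000 over 1907 miRNAs. Other versions, mismatches and the handling of multiple mapping are not given in the sources used here. Every deposited RPM value was a whole multiple of 1 read (100% of values within 0.01 read), which gave back the reads of each library. ES serum was 13.7 times as deep as ELA 2iL.

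As the values are RPM and not counts, limma 3.58.1 (R 4.3.3) was fitted to log2(RPM + 1) of the 4 libraries, with 1 term for stage and 1 for medium, and Benjamini-Hochberg adjustment, two-sided. Each miRNA had 1 residual degree of freedom, with 3.79 prior degrees shared across miRNAs, so p-values rest on the additive fit and not on replicates. The pseudocount understates changes of low miRNAs. edgeR 4.0.16 and DESeq2 1.42.0 were run on the recovered reads, and the scripts were tested on simulated data. Alternatives were TMM, DESeq2 size factors, totals without the 5 most abundant miRNAs, pseudocounts of 0.5 and 5, no filter, and the 8-base site; leaving out libraries was added after seeing the data. Intervals used scipy 1.17.1.

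Members and lists were chosen with earlier results of these data known. The miRNAs named are the members, the other miR-29 strands, the list of 9, and the 5 nearest profiles to the 3p sum and to miR-29b-3p. mmu-miR-294-3p, mmu-miR-295-3p, mmu-miR-290a-3p, mmu-miR-292a-3p, mmu-miR-302d-3p and both miR-142a strands were added as a check of the samples, after their values were seen. Sequences were matched by name for 1623 of the 1907 miRNAs.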

Additional observations from a re-analysis of the deposited data

Results flagged for a closer look

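Opposite directions in the 2 media or at the 2 stages drew attention for all 5 members and for the 3p sum. With 1 library a group the difference between the directions was not tested. The stage change in 2iL minus that in serum, on log2(RPM + 1), was −1.20 for miR-29a-3p, −1.40 for miR-29c-3p and −1.19 for the 3p sum. For these 3, both the stage change and the medium change turned sign between the pairs on RPM. With TMM the ES medium change of miR-29a-3p was 0.00, and the 2iL stage change of the 3p sum went from −0.31 on RPM to between −0.08 and −0.06 under the other 3 scalings. The counting intervals of the 2iL stage changes of all 3, and of the ELA medium change of miR-29c-3p, included 0. Without the pseudocount, as a log2 ratio of ratios of the reads with a Wald counting interval, these were −1.21 (−1.66 to −0.76) for miR-29a-3p, −1.48 (−2.53 to −0.44) for miR-29c-3p and −1.20 (−1.59 to −0.81) for the 3p sum. For miR-29b-3p the log2(RPM + 1) difference was −0.70 and the ratio of ratios −0.78 (−1.97 to 0.42), and only the medium change turned sign. The 5p strands went the other way. miR-29a-5p had 1.26 on log2(RPM + 1) and a ratio of ratios of 1.82 (−1.02 to 4.66), with a stage change of opposite sign in the media. miR-29c-5p had 1.89 on log2(RPM + 1) and a ratio of ratios of 2.33 (0.37 to 4.29), with a medium change of opposite sign at the stages. Over the 302 expressed miRNAs the log2(RPM + 1) difference had an SD of 1.22, and 24.2% had one at least as large as that of miR-29a-3p. The same 4 values enter the stage and the medium view, and the 53 reads of miR-29a-3p in ELA 2iL, the shallowest library, stand in each.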

How the results depend on the processing

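None of the 4 members tested passed an adjusted p of 0.05 under the 8 alternatives, and the adjusted p nearest to it was that of miR-29c-5p for stage without a filter (0.0505, range 0.0505 to 0.253). The fit without a filter also takes in miR-29a-5p, which is not counted here. Stage directions held in all 32 results (4 members, 8 alternatives). For the medium, 28 of 32 held, and the exceptions were all miR-29b-3p (0.25), whose direction turned in 4 of its 8 alternatives, with TMM (−0.13), DESeq2 size factors (−0.10), edgeR (−0.11) and DESeq2 (−0.076). The stage contrast of the 3p sum, 0.29, was 0.50 with DESeq2 size factors, and its medium contrast, 0.01, was −0.41 with TMM and −0.37 with DESeq2 size factors, where the median of the 302 expressed miRNAs fell from 0.42 to 0.00 and 0.04.

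Leaving out a library leaves 1 pair and no test. Without a 2iL or a serum library in turn, the stage contrast ranged from −0.31 to 0.88 for the 3p sum, from −0.35 to 0.85 for miR-29a-3p and from −0.60 to 0.80 for miR-29c-3p, the lower value each time being that without a serum library. It ranged from 0.51 to 1.21 for miR-29b-3p, the lower again without a serum library, and from 0.69 to 2.58 for miR-29c-5p, the lower without a 2iL library, where miR-29b-3p (1.21) was above it. Without an ES or an ELA library in turn, the medium contrast ranged from −0.59 to 0.61 for the 3p sum, from −0.71 to 0.48 for miR-29a-3p, from −0.10 to 0.60 for miR-29b-3p and from −0.20 to 1.20 for miR-29c-3p, the lower value being that without an ES library, and from −0.46 to 1.43 for miR-29c-5p, the lower value being that without an ELA library.

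Over all miRNAs, the calls for stage and medium rose from 0 and 0 to 50 and 80 (DESeq2), 39 and 64 (edgeR), 99 and 130 (no filter), 9 and 38 (pseudocount 5), 45 and 74 (TMM) and 70 and 94 (totals without the 5 most abundant), and stayed at 0 and 0 with DESeq2 size factors and a pseudocount of 0.5. The cause was not tested. With the 8-base site, 0 of the 5 chromatin regulators held a match. No paired analysis was possible because the groups share 1 replicate number only; the fit with stage and medium terms already takes each contrast within the level of the other term. Depth limits the 5p strands most, with 3 to 8 reads in the 2iL libraries for miR-29a-5p and miR-29c-5p.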
